A study of Mus musculus with 8 samples.

Results

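Toll-like receptors and the MyD88 branch of their signalling were followed as 10 genes in 4T1 cells, a mouse mammary carcinoma line. The genes are the receptors Tlr2, Tlr3 and Tlr4, the co-receptor Cd14, the adaptor Myd88, the kinase genes Irak1, Irak2, Irak3 and Irak4, and the ubiquitin ligase gene Traf6. They were chosen by name, as the rows of the deposited table whose gene symbol is one of these, and all 10 were found among 24787 rows. RNA was sequenced in 4 libraries of 4T1 cells with an shRNA against Etv5 and 4 with a control shRNA, cultured cells in both cases. The labels give the first group as an Etv5 knockdown and the second as wild type in genotype, and the column headers give the libraries of the first group 1 construct name (sh2), so a single shRNA appears to stand for the knockdown. The values have the properties of a mean coverage per base after scaling between libraries and are called coverage values. This reading is inferred from the values, and levels set side by side between genes rest on it.

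Toll-like receptors recognise microbial products and molecules released by damaged cells. All of them except TLR3 signal through the adaptor MyD88, which gathers the IRAK kinases and TRAF6 to activate NF-kB and MAP kinases, while TLR3 binds double-stranded RNA and signals through TRIF. TLR4 recognises lipopolysaccharide with CD14 and MD-2, and the IL-1 receptor family also uses MyD88.

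The targeted gene and the libraries set the limits of the comparison. Etv5 had 13.04, 11.2, 7.52 and 12.7 in the Etv5 shRNA libraries and 15.2, 15.1, 11.7 and 14.4 in the control shRNA libraries. Over 8 libraries it did not pass the test (log2 fold change -0.33, 95% interval -0.76 to 0.09, limma adjusted p 0.819). Without Etv5 shRNA replicate 3 the difference was smaller, 1.14-fold lower, and was not called (log2 fold change -0.17, 95% interval -0.42 to 0.07, limma adjusted p 0.422). Its coverage is uncertain, since Gm4798 shares 26.8% of the 50-base stretches in the Etv5 transcript. The groups overlapped, so Etv5 itself did not sort the libraries by label. Etv5 shRNA replicate 3, the third library of its group, deviated from the other 7 with transcript length: set against the median library, tested genes in the top quartile of transcript length were shifted by a median of -1.04 (log2) and those in the bottom quartile by 0.33. In the other libraries these shifts ran from -0.28 to 0.08 and from -0.09 to 0.24. The values -0.28 and 0.24 both came from control replicate 3, which thus deviated the same way to a lesser degree. Tests are given over 8 libraries and over 7, without Etv5 shRNA replicate 3. Control replicate 3 stays in both. Leaving it out of the 7 as well moved the calls over all genes from 241 lower and 127 higher to 608 and 416. Whether the replicates came from separate cultures is not stated, and p-values therefore measure the spread between these libraries, which may be technical.

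Over 8 libraries none of the 9 tested genes of the set was called (adjusted p under 0.05 by limma over all tested genes), and the unadjusted p was under 0.05 for Irak2 alone, at 0.00334. Irak3 lay under the filter on low values, which asks for 0.5 or more in at least 4 libraries. Of all 11731 tested genes, 0.486% were called lower and 0.00852% higher in the Etv5 shRNA libraries. Over 7 libraries Irak2 fell and Tlr3 rose, 1 gene of 9 in each direction, where 2.06% of 11685 tested genes were called lower and 1.09% higher. The median log2 fold change of the 9 genes was -0.25 over 8 libraries and -0.08 over 7, beside -0.11 and -0.0022 for all tested genes.

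**Figure D1:**
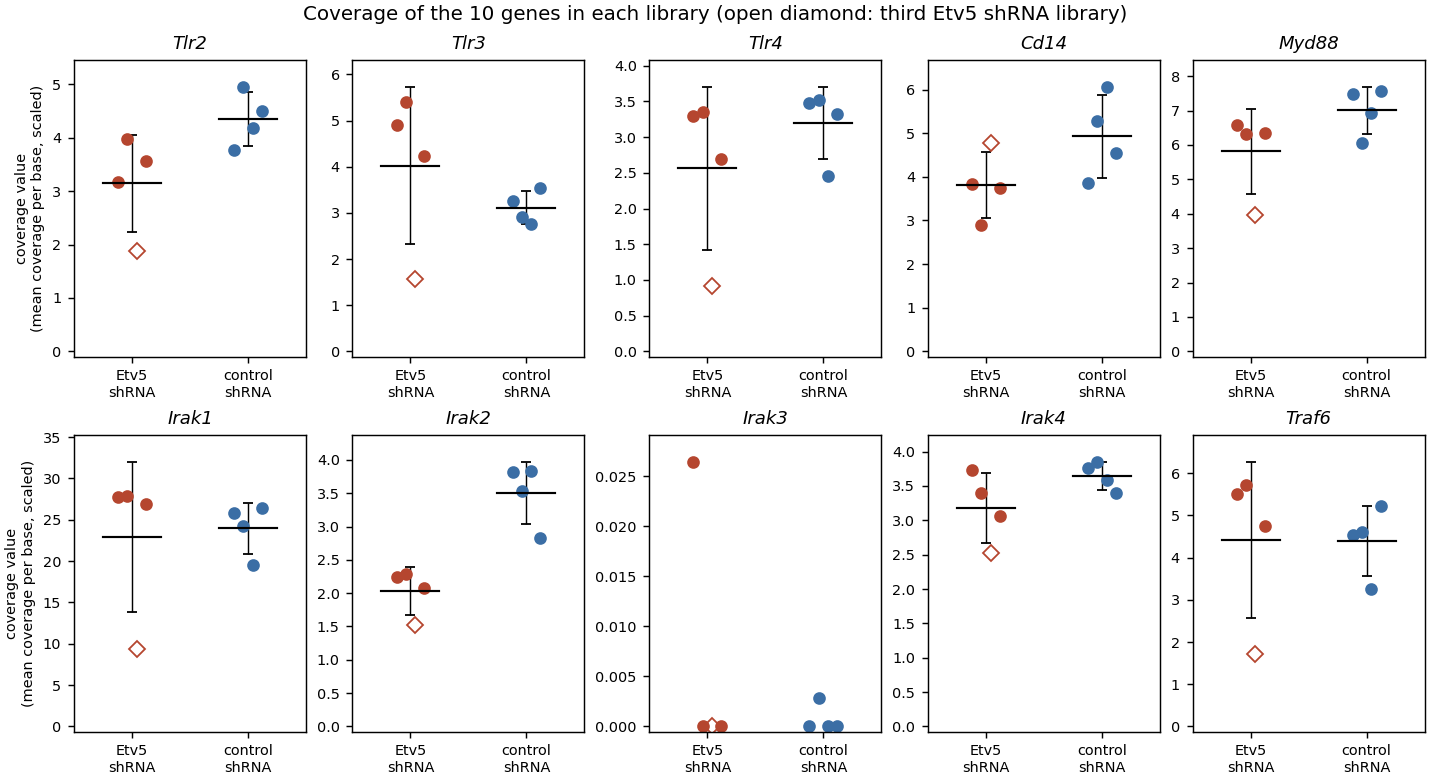
Coverage value (mean coverage per base, scaled between libraries) of each of the 10 genes, with 1 point per library, the Etv5 shRNA group left of the control shRNA group; lines and bars are the mean ± SD of 4 libraries, not drawn for Irak3, and each panel has its own scale. The open diamond is the third Etv5 shRNA library, the lowest of its group in 8 of the 10 panels and the highest for Cd14; for Irak2 all Etv5 shRNA libraries lie below all control libraries.

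The promoters of Irak2 and Tlr3 are printed because these are the genes that passed the test over 7 libraries, in opposite directions. The windows run from 250 bases before to 50 after the RefSeq start on GRCm38.p6 (mm10), at chr6:113638217-113638516 on the plus strand for Irak2 and chr8:45410331-45410630 on the minus strand for Tlr3. Capitals mark matches to motifs searched on both strands: the kB consensus of NF-kB, the ETS motifs AGGAAG and CGGAAG, the AP-1 motif TGANTCA and the interferon response core AAANNGAAA.
Irak2: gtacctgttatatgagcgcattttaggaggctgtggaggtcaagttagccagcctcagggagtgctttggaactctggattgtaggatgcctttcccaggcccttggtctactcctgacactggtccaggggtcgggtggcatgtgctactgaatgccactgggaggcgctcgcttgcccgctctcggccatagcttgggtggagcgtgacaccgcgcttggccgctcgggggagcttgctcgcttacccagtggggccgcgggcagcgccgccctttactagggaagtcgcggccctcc
Tlr3: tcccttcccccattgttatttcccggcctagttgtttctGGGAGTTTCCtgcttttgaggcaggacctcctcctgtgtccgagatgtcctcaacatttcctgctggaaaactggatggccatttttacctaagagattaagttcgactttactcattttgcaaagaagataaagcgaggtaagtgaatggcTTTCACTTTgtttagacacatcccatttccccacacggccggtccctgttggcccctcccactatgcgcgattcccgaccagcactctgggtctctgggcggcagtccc

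The Tlr3 window held 1 match to the kB consensus, at position -211 from the start, and 1 to the interferon response core, at -59. These positions count from the RefSeq start. On the minus strand the GENCODE interval of Tlr3 begins further upstream, at 45411080, so the window lies inside that interval. The Irak2 window held no match to any of the 5 motifs. Among all 32851 windows in the RefSeq table, 4.51% held a kB match, 35.4% AGGAAG, 16.9% CGGAAG, 7.81% the AP-1 motif and 10.6% the interferon response core. Windows were listed for 8 of the 10 genes. A kB match was present in 2 of them (Tlr2 and Tlr3), AGGAAG in 2 (Tlr2 and Traf6), CGGAAG in 3 (Irak1, Irak4 and Traf6), the interferon response core in 3 (Tlr2, Tlr3 and Myd88) and the AP-1 motif in 0. In the Tlr2 window the 4 kB matches partly overlap one another. These matches describe letters in the window and were not tested as binding sites.

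Among the receptors, Tlr3 was higher with the Etv5 shRNA in 3 libraries of 4. Tlr3, on chromosome 8 from 45395665 to 45411080, had 4.91, 5.40, 1.56 and 4.23 in the Etv5 shRNA libraries, against 3.26, 2.90, 2.75 and 3.53 in the control libraries. The third Etv5 shRNA library was the lowest of all 8, and the other 3 lay above every control library. Tlr3 was not called over 8 libraries (log2 fold change 0.21, 95% interval -0.42 to 0.84, limma adjusted p 0.881). Over 7 libraries Tlr3 averaged 4.85 ± 0.589 with the Etv5 shRNA (SD, n = 3) and 3.11 ± 0.352 with the control shRNA (SD, n = 4), 1.56-fold, with a log2 fold change of 0.51 (SE 0.109, adjusted p 0.0398 by limma). Permuting the labels of these 7 libraries exactly (two-sided) gave p = 0.0286, the smallest that 35 assignments allow. Over all 8 libraries the same exact permutation gave p = 0.314. Groups without overlap in the higher direction occurred in 9.78% of all tested genes over 7 libraries.

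The call for Tlr3 rested on few libraries. With a further library left out of the 7 in turn, the adjusted p by limma ran from 0.0217 to 0.184 and the gene was called in 2 of 7 fits, those without control replicate 3 or 4, with a positive log2 fold change in every one (0.44 to 0.59). In a bulk sample, a change in the number of cells that express a gene and a change in RNA per cell cannot be told apart.

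Tlr2, which recognises bacterial lipoproteins together with TLR1 or TLR6, lies on chromosome 3 from 83836272 to 83841767. It had 3.17, 3.97, 1.87 and 3.56 in the Etv5 shRNA libraries, against 3.78, 4.96, 4.18 and 4.49 in the control libraries. The groups overlapped through the second Etv5 shRNA library and control replicate 1. The log2 fold change was -0.39 (95% interval -0.82 to 0.04, adjusted p 0.747 by limma) over 8 libraries and -0.23 (-0.47 to 0.02, adjusted p 0.295 by limma) over 7, so a lower level was not resolved from the spread between libraries.

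Tlr4, the lipopolysaccharide receptor, lies on chromosome 4 from 66827584 to 66930284. It had 3.30, 3.36, 0.917 and 2.69 in the Etv5 shRNA libraries, against 3.48, 3.53, 2.46 and 3.32 in the control libraries. Apart from the third Etv5 shRNA library, which held the lowest value by far, the groups covered much the same range. Its log2 fold change was -0.30 over 8 libraries (95% interval -0.90 to 0.30, limma adjusted p 0.879) and -0.02 over 7 (-0.30 to 0.25, limma adjusted p 0.936).

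Cd14, which hands lipopolysaccharide to TLR4, lies on chromosome 18 from 36725067 to 36726798. It had 3.83, 2.91, 4.77 and 3.74 in the Etv5 shRNA libraries, against 3.85, 5.27, 6.07 and 4.54 in the control libraries. Here alone among the 10 genes the third Etv5 shRNA library held the top value of its group, and the transcript of Cd14, at 1641 bases, is the shortest of the 10. Over 7 libraries the groups did not overlap, by a narrow margin, at a log2 fold change of -0.39 (95% interval -0.71 to -0.08; limma unadjusted p 0.0202, adjusted p 0.171). Over 8 libraries the groups overlapped, at a log2 fold change of -0.30 (adjusted p 0.837 by limma).

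Myd88, on chromosome 9 from 119335934 to 119341411, did not pass the test. It had 6.59, 6.32, 3.98 and 6.35 in the Etv5 shRNA libraries, against 7.48, 6.06, 6.92 and 7.56 in the control libraries. Over 7 libraries it averaged 6.42 ± 0.149 with the Etv5 shRNA (SD, n = 3) and 7.01 ± 0.691 with the control shRNA (SD, n = 4). The log2 fold change was then -0.11 (95% interval -0.32 to 0.11, adjusted p 0.584 by limma), and -0.25 over 8 libraries (adjusted p 0.874 by limma).

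Irak2 was the gene of the set with the lowest p over 8 libraries. It encodes a kinase-like protein that joins the MyD88 complex after IRAK4 and sustains signalling to TRAF6, and lies on chromosome 6 from 113638467 to 113695026. It had 2.24, 2.29, 1.52 and 2.08 in the Etv5 shRNA libraries, against 3.81, 3.54, 3.84 and 2.83 in the control libraries. Every Etv5 shRNA library lay below every control library, the third included, as in 7.58% of all tested genes over 8 libraries in this direction (1.52% in the other). Over 8 libraries it averaged 2.03 ± 0.357 with the Etv5 shRNA and 3.50 ± 0.471 with the control shRNA (SD, n = 4 each), 1.72-fold lower, at a log2 fold change of -0.57 (95% interval -0.90 to -0.25, adjusted p 0.258 by limma). The exact permutation p (two-sided) was 0.0286, the smallest possible over 70 assignments.

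Over 7 libraries Irak2 was 1.59-fold lower and passed the test, with a log2 fold change of -0.48 (SE 0.107, adjusted p 0.0432 by limma), while the exact permutation p (two-sided) was 0.0571. As with Tlr3, the call was near the threshold. With a further library left out of the 7 in turn, the adjusted p by limma ran from 0.0231 to 0.172 and Irak2 was called in 2 of 7 fits, those without control replicate 3 or 4, with a negative log2 fold change in every one (-0.56 to -0.45).

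Irak1, the kinase that IRAK4 phosphorylates in the receptor complex, lies on the X chromosome from 74013914 to 74023918. It had 27.7, 27.9, 9.37 and 26.8 in the Etv5 shRNA libraries, against 25.8, 24.2, 19.6 and 26.4 in the control libraries. Without the third Etv5 shRNA library every remaining library of that group lay just above the highest control. The log2 fold change was -0.17 over 8 libraries (adjusted p 0.899 by limma) and 0.20 over 7 (95% interval -0.04 to 0.44, adjusted p 0.358 by limma), so its sign turned with 1 library.

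Irak4, the first kinase to bind MyD88, lies on chromosome 15 from 94543643 to 94581815. It had 3.73, 3.40, 2.53 and 3.06 in the Etv5 shRNA libraries, against 3.77, 3.85, 3.59 and 3.39 in the control libraries. The groups overlapped with and without the third Etv5 shRNA library. Over 8 libraries the log2 fold change was -0.16 (95% interval -0.47 to 0.14, limma adjusted p 0.879), and over 7 it was -0.08 (-0.29 to 0.13, limma adjusted p 0.662).

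Irak3 encodes IRAK-M, a member of the family that restrains signalling and is known mainly from monocytes and macrophages. It was listed at 0 in 3 of the 4 Etv5 shRNA libraries and 3 of the 4 control libraries, with 0.0265 in the first Etv5 shRNA library and 0.00286 in the second control library. No fold is given.

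Traf6, the ubiquitin ligase that carries the signal from IRAKs to the TAK1 kinase complex, lies on chromosome 2 from 101678429 to 101701669. It had 5.51, 5.72, 1.72 and 4.74 in the Etv5 shRNA libraries, against 4.53, 4.61, 3.25 and 5.22 in the control libraries. The groups overlapped, and the log2 fold change was -0.07 over 8 libraries (adjusted p 0.947 by limma) and 0.24 over 7 (95% interval -0.06 to 0.54, adjusted p 0.378 by limma). Over 7 libraries 4 genes of the set had groups that did not overlap, Irak2 and Cd14 lower and Tlr3 and Irak1 higher. This is to be read against 10.5% of tested genes in the lower and 9.78% in the higher direction.

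**Figure D2:**
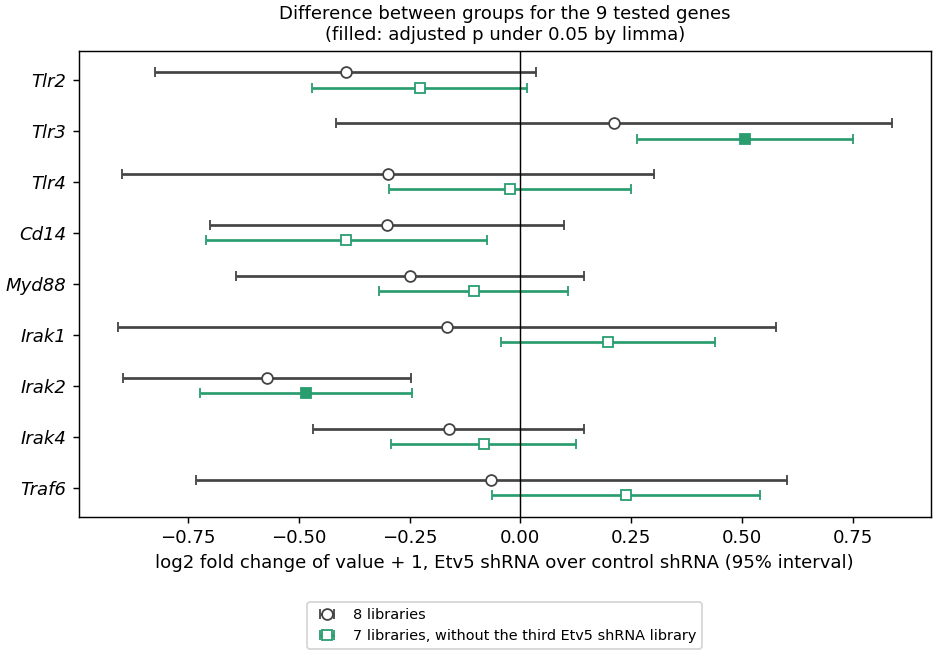
Log2 fold change of value + 1, Etv5 shRNA over control shRNA, for the 9 tested genes, with the 95% interval of the limma fit; circles are 8 libraries and squares 7, without the third Etv5 shRNA library, and filled symbols have an adjusted p under 0.05. Only the squares of Irak2 (-0.48) and Tlr3 (0.51) are filled, and the intervals over 8 libraries are the wider ones for all genes.

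The third Etv5 shRNA library held between 29.4% (Tlr4) and 136.5% (Cd14) of the mean of the other 3 libraries of its group in the 9 tested genes. For Tlr3, with a longest transcript of 4407 bases, the share was 32.3%, and for Irak2, at 3196 bases, 68.7%. The share was also low in Traf6, at 32.3% with 6169 bases, and in Irak1, at 34.1% with 3835. The shares did not follow length throughout. Irak4 had 74.4% with 3437 bases, above Myd88 at 61.9% with 2458 and Tlr2 at 52.4% with 3014. To set genes side by side within 1 library, each tested receptor and kinase gene was divided by the tested gene of its own family nearest in transcript length, a comparison chosen after the values were seen and given without a test.

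Within each library Irak2 stood at 0.602, 0.676, 0.600 and 0.679 times Irak4 (3437 bases) in the Etv5 shRNA libraries, against 1.01, 0.918, 1.07 and 0.833 times in the control libraries. The third Etv5 shRNA library lay with the rest of its group, and the groups did not overlap. Tlr3 stood at 1.49, 1.61, 1.71 and 1.57 times Tlr4 (4077 bases) in the Etv5 shRNA libraries, against 0.937, 0.823, 1.117 and 1.06 times in the control libraries, again without overlap. The ratios of Tlr2 to Tlr4, Cd14 to Tlr2 and Irak1 to Irak4 overlapped between groups. In these pairs Etv5 shRNA replicate 3 lay outside the range of all other libraries. It had 2.04 for Tlr2 to Tlr4, where the rest of its group had 0.959 to 1.32. For Cd14 to Tlr2 it had 2.55, against 0.732 to 1.21, and for Irak1 to Irak4 3.71, against 7.44 to 8.77. Pairing by length thus did not bring this library level with its group in every pair. The share of other gene pairs without overlap between groups was not tested. A ratio shows that 2 genes differed unequally, not which of them did.

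**Figure D3:**
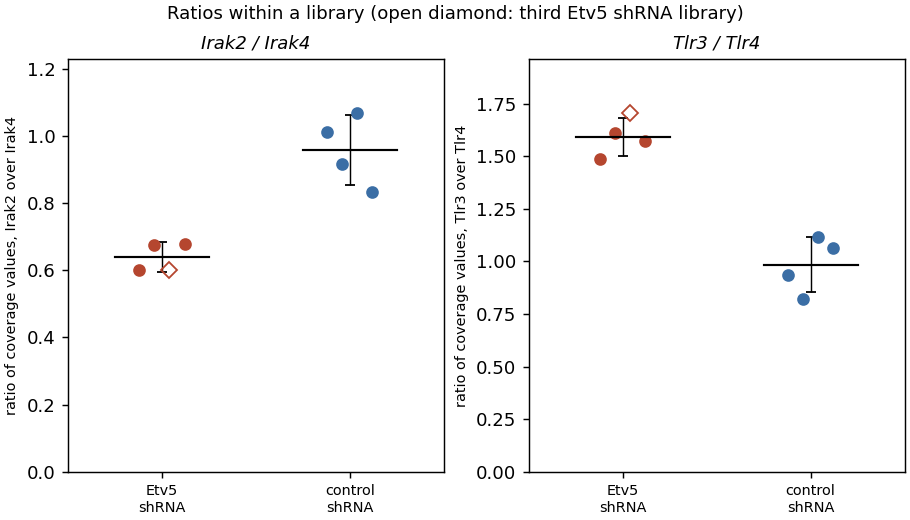
Ratio of coverage values within a library, Irak2 over Irak4 on the left and Tlr3 over Tlr4 on the right, 1 point per library with mean ± SD of 4, the Etv5 shRNA group left of the control shRNA group and the third Etv5 shRNA library as an open diamond. Irak2 over Irak4 averaged 0.639 with the Etv5 shRNA and 0.958 with the control shRNA, and Tlr3 over Tlr4 averaged 1.59 with the Etv5 shRNA and 0.985 with the control shRNA.

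In level, Irak1 was far above the rest of the set, at 23.0 ± 9.07 in the Etv5 shRNA libraries and 24.0 ± 3.08 in the control libraries (SD, n = 4 each), with no overlap with the next gene, Myd88. In the control libraries the order below Myd88 was Cd14, Traf6, Tlr2, Irak4, Irak2, Tlr4 and Tlr3, with Irak3 at or near 0. Neighbours from Myd88 down to Tlr3 overlapped in range, so that order is not resolved beyond the spread. In the Etv5 shRNA libraries without the third, Tlr3 came after Irak1, Myd88 and Traf6 and Irak2 came last before Irak3. There Irak2, at 2.21 ± 0.112 (SD, n = 3), lay below Tlr4 at 3.12 ± 0.370 with no overlap, and Tlr3 above Tlr2 with none. Of the summed coverage of the 4 receptor genes, Tlr3 made up 32.3%, 34.5%, 17.1% and 29.7% in the Etv5 shRNA libraries and 22.7%, 17.4%, 17.8% and 22.2% in the control libraries.

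The genes most alike in pattern were those with the smallest root mean square difference from the centred log2 profile of Irak2 or Tlr3 over the 8 libraries. For Irak2 they included Ube2ql1, Tmem25, Enpp2 (which encodes autotaxin) and Gbp2b (a guanylate-binding protein), at differences of 0.07 to 0.09 on the log2 scale. For Tlr3 they were Gspt1 (a translation termination factor), Ddx21 (a nucleolar RNA helicase), Nipal1, Cpsf2 (a subunit of the pre-mRNA cleavage factor) and Phldb2, at 0.05 to 0.06. All profiles share the same libraries, so the third Etv5 shRNA library weighs on every one of these distances.

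The other genes of the pathway were taken as 78 further genes in 7 lists, of which 48 were tested. Over 8 libraries 3 were lower, 0 higher and 45 not called by limma, where 0.486% of all tested genes were lower and 0.00852% higher. At an adjusted p under 0.05 over 7 libraries 6 were lower, 1 was higher and 41 were not called. Of all tested genes 2.06% were then called lower and 1.09% higher. The lists were chosen with earlier results of these data known, so these counts are a description and no test. The median log2 fold change of the 48 genes was -0.17 over 8 libraries and 0.03 over 7. The genes called lower were 4 negative regulators and 2 kinases, of which Map3k8 reached the filter through the control libraries alone. None of the 9 other receptor genes was tested, so none could be called. The 2 tested adaptors and the 3 tested genes of the IL-1 receptor family were not called, too few for a contrast.

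None of the 9 other Toll-like receptor genes reached the filter, with a highest value of 0.533 (Tlr5). Tlr6, the partner of TLR2, averaged 0.176 with the Etv5 shRNA and 0.355 with the control shRNA. Of the co-receptor and trafficking genes 6 of 11 were tested. Ly96, which encodes MD-2, was at 2.35 ± 0.344 in the Etv5 shRNA libraries and 2.75 ± 0.497 in the control libraries (SD, n = 4 each) and was not called (limma adjusted p 0.879 over 8 libraries and 0.399 over 7). Lrrc59, an endoplasmic reticulum protein that aids the traffic of nucleic acid-sensing receptors, was the gene called higher over 7 libraries, at 64.7 ± 2.79 (SD, n = 3) with the Etv5 shRNA and 49.2 ± 2.81 (SD, n = 4) with the control shRNA (limma adjusted p 0.0403, against 0.881 over 8). Cnpy4, a chaperone of TLR4, was lower in each Etv5 shRNA library than in each control library, at an adjusted p by limma of 0.291 over 8 libraries and 0.0503 over 7.

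The 2 tested genes of the other TIR adaptors and the 3 of the IL-1 receptor family were not called over 8 or 7 libraries. Ticam1, which encodes TRIF, the adaptor that TLR3 uses, was at 2.05 ± 0.294 with the Etv5 shRNA, replicate 3 left out (SD, n = 3), and 2.37 ± 0.324 with the control shRNA (SD, n = 4; limma adjusted p 0.524 over 7 libraries and 0.855 over 8). Il1r1 was at 2.32 ± 1.11 with the Etv5 shRNA and 2.95 ± 0.186 with the control shRNA (SD, n = 4 each). Its co-receptor gene Il1rap was at 1.57 ± 0.804 with the Etv5 shRNA and 2.32 ± 0.263 with the control shRNA (SD, n = 4 each). Over 7 libraries neither was called by limma (adjusted p 0.856 for Il1r1 and 0.420 for Il1rap; over 8 libraries 0.879 and 0.839). Among 5 tested genes for endogenous ligands none was called. Hspd1, a mitochondrial chaperone gene of that list, was higher in every Etv5 shRNA library than in every control library, at 232 ± 12.7 with the Etv5 shRNA and 177 ± 22.6 with the control shRNA (SD, n = 4 each; limma adjusted p 0.520 over 8 libraries and 0.129 over 7).

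Of 18 tested downstream kinase, ligase and IRF genes, Ikbke was lower over 8 libraries, and Ikbke and Map3k8 were lower over 7. The share of all tested genes called lower was 0.486% over 8 libraries and 2.06% over 7. Ikbke, which encodes IKKε, a kinase of the TRIF branch, was at 6.51 ± 0.536 in the Etv5 shRNA libraries and 14.4 ± 0.963 in the control libraries (SD, n = 4 each; log2 fold change -1.04, limma adjusted p 0.00729; over 7 libraries -1.09 and 1.79e-04). Map3k8, which encodes the kinase TPL2, was at 0.250 ± 0.120 with the Etv5 shRNA and 0.935 ± 0.266 with the control shRNA (SD, n = 4 each), with an adjusted p by limma of 0.0989 over 8 libraries and 0.0342 over 7. In the Etv5 shRNA libraries its values ran from 0.0807 to 0.362, under the filter of 0.5. Map3k8 was therefore tested only through the control libraries, where it was high, and its call is a description and no support. Genes that act next to TRAF6 (Map3k7, Tab1, Tab2, Tab3, Ube2n and Ube2v1) were not called, at log2 fold changes of -0.19 to 0.12 over 8 libraries and -0.08 to 0.22 over 7, and all but Tab1 changed sign without Etv5 shRNA replicate 3.

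Of 14 tested negative regulators, Zc3h12a and Nfkbia were lower over 8 libraries, and Nfkbid and Tnip1 as well over 7. Of all tested genes 0.486% were lower over 8 libraries and 2.06% over 7. This list too was chosen with earlier results known, so its counts are a description and no test. Nfkbid, which encodes a nuclear IkB protein, was at 0.912 ± 0.109 in the Etv5 shRNA libraries and 1.87 ± 0.183 in the control libraries (SD, n = 4 each; limma adjusted p 0.0632 over 8 libraries and 0.00957 over 7). Tnip1, a partner of the deubiquitinase A20, was at 14.7 ± 1.96 with the Etv5 shRNA and 23.0 ± 0.503 with the control shRNA (SD, n = 4 each; limma adjusted p 0.131 over 8 libraries and 0.0111 over 7). Tnfaip3, the gene for A20 itself, was at 14.96 ± 4.59 with the Etv5 shRNA and 16.8 ± 2.11 with the control shRNA (SD, n = 4 each) and was not called (limma adjusted p 0.879 over 8 libraries and 0.881 over 7).

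On a list of genes that Toll-like receptor signalling induces in many cell types, most tested genes were lower with the Etv5 shRNA. Of 12 tested genes on that list, chosen with their results known, 9 were lower over 8 libraries and 10 over 7, with none higher. Of all tested genes 0.486% were lower over 8 libraries and 2.06% over 7. The counts of the list are a description and no test. Its median log2 fold change was -2.30 over 8 libraries. Ccl2 on this list had 0.104, 0.0451, 0.201 and 0.710 in the Etv5 shRNA libraries. It reached the filter of 0.5 only with the control libraries, so its call is a description and no support. Nfkbiz, which encodes the nuclear protein IkBζ, had 4.21 ± 1.66 with the Etv5 shRNA and 19.6 ± 1.59 with the control shRNA (SD, n = 4 each; log2 fold change -2.05, limma adjusted p 0.0113; over 7 libraries -1.77 and 1.17e-05). Ptgs2 (cyclooxygenase-2) was at 34.3 ± 15.7 with the Etv5 shRNA and 30.4 ± 2.93 with the control shRNA (SD, n = 4 each), with an adjusted p by limma of 0.994 over 8 libraries and 0.0717 over 7.

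**Figure D4:**
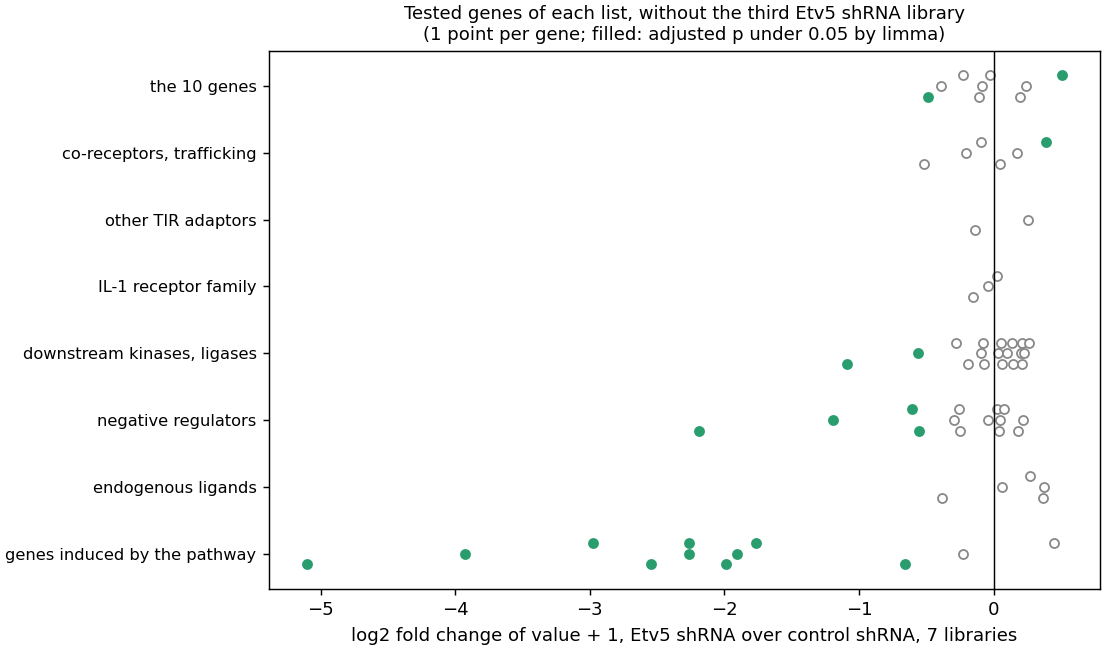
Log2 fold change of value + 1 over 7 libraries, Etv5 shRNA over control shRNA, for the tested genes of each list, 1 point per gene, with filled points at an adjusted p under 0.05 by limma. The receptor, adaptor, kinase and ligase genes of the set lie between -0.48 (Irak2) and 0.51 (Tlr3). The induced genes, a list chosen with its results known, reach -5.10 (Lcn2), and the negative regulator Zc3h12a lies at -2.19.

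The cells were checked against markers of mammary epithelium and of other cell types. All 9 epithelial genes were tested, and none was called over 8 libraries. Over 7 libraries Cdh1, the E-cadherin gene, was higher, at 63.3 ± 2.87 with the Etv5 shRNA (SD, n = 3) and 38.5 ± 3.49 with the control shRNA (SD, n = 4; limma adjusted p 0.00449, against 0.806 over 8). Krt14 was above every control library in each Etv5 shRNA library, at 18.7 ± 7.38 with the Etv5 shRNA and 11.2 ± 1.45 with the control shRNA (SD, n = 4 each), and was not called (limma adjusted p 0.564 over 8 libraries and 0.114 over 7). Epcam was at 98.1 ± 6.62 in the Etv5 shRNA libraries and 103 ± 14.4 in the control libraries (SD, n = 4 each). Of 14 leukocyte markers, 3 (Adgre1, Tyrobp and Cd3e) were listed at 0 in every library and Cd68 alone was tested. Their summed values were 2.95 to 3.66 in the Etv5 shRNA libraries and 3.08 to 5.01 in the control libraries, mostly Cd68, with Ptprc no higher than 0.0460. Of 10 fibroblast and endothelial markers, 2 were listed at 0 in every library and Pdgfra alone was tested. Their sums were 0.641 to 2.56 in the Etv5 shRNA libraries and 2.76 to 3.64 in the control libraries, mostly Pdgfra, which was lower over 7 libraries (limma adjusted p 0.0446) and not called over 8 (0.435). Collagen genes of the list differed the other way in mean, with Col1a1 at 0.174 in the Etv5 shRNA libraries and 0.101 in the control libraries and Col1a2 at 0.0300 in the Etv5 shRNA libraries and 0.00212 in the control libraries, with overlap. The part of these transcripts in the values of the receptor set was not tested.

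Sequence shared with other genes was small but present for some genes of the set. Of the 50-base stretches of the longest transcript, 8.29% of those of Irak2 also occur in other genes, Gm43963 and Gm7229 first, 7.50% of those of Irak4 (Twf1), 7.26% of those of Myd88 (Acaa1a), 2.72% of those of Irak1 (Ptk2 and Kctd3), 1.56% of those of Tlr3 (Gm45542) and 0.689% of those of Irak3 (Tmbim4). Gm43963, Twf1, Acaa1a and Gm45542 overlap these genes on the opposite strand. No source states that strand was used, so reads there cannot be told apart. Tlr2, Tlr4, Cd14 and Traf6 shared none.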

How the data were processed

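RNA of 8 libraries was extracted with TRIzol or a column kit and sequenced as TruSeq RNA libraries on a NovaSeq instrument, per the labels' protocols. The aligner was STAR 2.7.10a and the build mm10, per the submitters' processing notes. The deposited values are a coverage signal: per the file headers, columns derive from bedGraph tracks, and the values behave as depth-scaled mean coverage per base. Value times transcript length, added over genes, came to 739 to 769 megabases in each library. The program, annotation and scaling were not given in the sources used here. Read depth is unknown, so no counting interval is given.

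Groups came from sample titles. Values were compared as log2(value + 1) with limma 3.58.1 in R 4.3.3, with eBayes' variance trend and no covariates, and Benjamini-Hochberg adjustment over all genes that reached 0.5 in 4 or more libraries; fold changes on this scale understate those of low genes. Folds are ratios of group means. Because these are not counts, count models were left aside. Lengths and coordinates came from GENCODE mouse release 21 on mm10 (97.8% of rows matched), promoters from RefSeq on GRCm38.p6.

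The members, lists, naming rule and settings were chosen with earlier results of these data known. All 10 genes are described; from each pathway list, genes called over 8 or 7 libraries, and otherwise the lowest p, are named, with genes alike in pattern to called members, of which 1 is not reported here. Tlr5, Tlr6, Ly96, Il1r1, Tnfaip3, Ptgs2, Epcam, Krt14, the partners of TRAF6 and the markers were named after their values were seen. Alternatives were other scalings, filters, a pseudocount of 0.1, array weights, length-trend removal, a replicate block and leaving out libraries.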

Additional observations from a re-analysis of the deposited data

Results flagged for a closer look

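For the 10 genes and Etv5, the extreme value of each group was compared with its neighbours, as the gap to the nearest value over the whole range. Of 22 groups 4 passed, where chance alone passes about 1.1 groups of 22 without ties. For 2 genes the extreme value came from Etv5 shRNA replicate 3: Irak1 was at 9.37 (ratio 0.945) and Myd88 at 3.98 (ratio 0.895), each far below the rest of its group. The other 2 were single values above 0 in Irak3, 0.0265 in Etv5 shRNA replicate 1 and 0.00286 in control replicate 2, where all other libraries were listed at 0. With the rest of a group at 0, any single value above 0 passes, so these 2 are not to be set against that chance number.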

How the results depend on the processing

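Irak2 had a negative and Tlr3 a positive log2 fold change under all 27 alternatives, from -0.76 to -0.37 and from 0.07 to 0.59, and 6 of the 27 called each. Omitting Etv5 shRNA replicate 3 gave 1 member lower and 1 higher, as did omitting it with median-of-ratios scaling (1 and 1) or with the length trend removed (1 and 1). With that trend removed, limma's adjusted p was 0.0868 for Irak2 and 0.257 for Tlr3 over 8 libraries, and 0.0186 for Irak2 and 0.0113 for Tlr3 over 7. Array quality weights gave 2 lower (Irak2 and Tlr2) and 1 higher (Tlr3), and called Etv5 lower at -0.19 (adjusted p 0.0392 by limma). Their weight for the third Etv5 shRNA library was 0.0265 and for the first 10.7, the estimation stopped before it converged, and 1670 genes of the table were called lower and 1513 higher. Irak1 had the opposite sign, 0.14, with array weights, and without the third Etv5 shRNA library at 0.20, 0.21 with median-of-ratios scaling, 0.18 with the length trend removed and 0.11 with the block. Irak4 turned to 0.045 with quantile normalisation. Traf6 turned to 0.057 with median-of-ratios scaling, 0.12 with quantile normalisation, 0.19 with array weights and 0.13 with the length trend removed. It also turned without control replicate 4 (0.0069) and without the third Etv5 shRNA library (0.24; 0.25 with median-of-ratios scaling, 0.16 with the length trend removed and 0.13 with the block). With 1 more library left out of the 7, a fit added after the data were seen, Irak1 ran from 0.11 to 0.25, Traf6 from 0.13 to 0.31 and Tlr4 from -0.11 to 0.053; members called ran from 0 to 1 in each direction. Over all fits that left out libraries, the lowest values were -0.29 for Irak1, -0.20 for Traf6 and -0.42 for Tlr4. None of these values of Irak1, Irak4, Traf6 or Tlr4 was called. The cause of these changes was not tested.

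Pathway genes called, 3 lower and 0 higher in the main test, were 5 lower without a filter and 10 lower and 6 higher with array weights. Without Etv5 shRNA replicate 3 there were 6 lower and 1 higher, with median-of-ratios scaling also 6 and 1, with the length trend removed 8 and 2, and with the block 6 and 0. Leaving out single libraries gave 1 to 6 lower and 0 to 1 higher, and a further library left out of the 7 gave 3 to 6 lower and 0 to 2 higher. Of all genes, 57 lower and 1 higher in the main test, median-of-ratios scaling called 7 higher, quantile normalisation 8, equal sums 0 and no filter 3. A pseudocount of 0.1 gave 37 lower and 0 higher, and the length trend removed gave 94 and 23. Leaving out single libraries gave 20 to 241 lower and 0 to 127 higher, and a further library left out of the 7 gave 83 to 608 and 11 to 416. Without the third Etv5 shRNA library, median-of-ratios scaling gave 236 and 134, the length trend removed 515 and 421 and the block 212 and 80. Other scalings moved the all-gene median log2 fold change, -0.11, to between -0.18 (equal sums) and 0.02 (median-of-ratios).

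Replicate numbers are shared between the groups but are not stated to pair libraries, and they were not taken as pairs. Deviations of same-numbered libraries from their group means correlated at 0.549, 0.0924, 0.794 and 0.510 for numbers 1 to 4. Differently numbered libraries also correlated, Etv5 shRNA replicate 2 with control replicate 4 at 0.693, so these values do not settle whether libraries were paired. With the replicate number as a block no member was called over 8 libraries, and 50 genes were lower and 1 higher. Over 7 libraries Irak2 had an adjusted p of 0.0676 and Tlr3 of 0.0951 by limma with the block.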
